A study of Mus musculus with 6 samples.

Results

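The 10 genes described here encode transcription factors of the supporting cells of the fetal ovary and of the early gonad: *Foxl2*, *Runx1*, *Irx3*, *Irx5*, *Nr5a1*, *Gata4*, *Wt1*, *Lhx9*, *Emx2* and *Nr0b1*. They were chosen by name from the 54532 genes of the deposited expression table, and each name matched 1 gene. RNA of whole C57BL/6 ovaries at 16.5 days post-coitus (dpc) was sequenced in 3 control (Ctrl) libraries, labelled wild type, and in 3 libraries of *Srsf1* conditional knockout (cKO) ovaries. *Srsf1* encodes a splicing factor of the serine/arginine-rich family. In cKO mice, whose genotype is *Stra8-GFPCre Srsf1* Fl/Fl, a Cre driven from the germ-cell gene *Stra8* removes floxed exons of *Srsf1* in oocytes, while the somatic cells that surround them are not targeted. The sources used here do not say whether the Ctrl mice carried the floxed allele or the transgene, or whether ovaries were pooled. The comparison of cKO with Ctrl ovaries therefore asks, for these 10 genes, how regulators of somatic cells read when the splicing factor is removed from the neighbouring germ cells.

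The gonad forms as a thickening of the epithelium beside the mesonephros, and *Gata4*, *Wt1*, *Nr5a1*, *Lhx9* and *Emx2* are needed for this ridge to form or to survive. In the ovary, the supporting cells become pregranulosa cells, which enclose the oocytes when primordial follicles form. *Foxl2* and *Runx1* keep these cells on the ovarian path, and *Irx3* and *Irx5* act in them around the time when follicles form. *Nr0b1* encodes an orphan nuclear receptor that binds the protein of *Nr5a1* and dampens its activity.

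None of the 10 genes passed the test between cKO and Ctrl ovaries, at an unadjusted or an adjusted p. Expression is given as FPKM, which scales the reads on a gene to gene length and a library size. The library size implied by the deposited values was 0.965, 1.03 and 1.04 times the reads on genes in Ctrl 1, 2 and 3. In cKO 1, 2 and 3 it was 0.992, 0.9998 and 0.999 times. The values were therefore not scaled by the reads on genes alone, and the sources used here do not explain this. Whether the scaling adjusts for very abundant RNAs whose share of the reads differs between libraries was not tested, so comparisons between libraries are approximate. Scaling by median ratios and quantile normalization were therefore among the alternatives. The test was limma, two-sided, on log2(FPKM + 1) of the 17180 genes that averaged 0.5 FPKM or more, a scale that makes the changes of low genes look smaller. All 10 genes had enough reads to be tested. At an unadjusted p below 0.05, the limit used by the study, 0 of the 10 genes passed, where 4.43% of all genes tested did (2.68% higher and 1.75% lower in cKO), and limma voom on the reads also called 0 of them. The log2 difference (cKO minus Ctrl, the log2 of the fold change of FPKM + 1) was above 0 for 6 genes and below 0 for 4, with a median of 0.01, and the median over all genes tested was -0.01. In absolute value, the median was 0.06 for the 10 genes and 0.13 for all genes tested. Separate samples per group carry the labels, and p-values measure the spread between these samples. In RNA of whole ovaries, fewer cells of a type and less RNA per cell cannot be told apart.

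Reads on genes were between 14212164 and 16784241 per library, and the values of every library correspond to whole reads. The targeted gene *Srsf1* was below every Ctrl library in each cKO library, at 80.2, 70.1 and 63.1 FPKM in Ctrl against 32.4, 37.0 and 36.4 in cKO, in the order of replicates 1, 2 and 3, the order used for all values that follow. Over all genes tested in limma, 761 passed the unadjusted limit and 0 passed an adjusted p below 0.05. One protocol text among the labels mentions a tissue other than ovary. Markers of ovary were present in all 6 libraries, among them the germ-cell gene *Sycp3*, a part of the meiotic chromosome axis, at a mean of 66.3 FPKM in Ctrl and 81.4 in cKO, and the pregranulosa and gonadal gene *Amhr2*, which encodes the receptor of anti-Müllerian hormone, at 144 and 139. *Sox9*, the factor that drives the testis path and is repressed by *Foxl2*, named here after its values had been seen, was at 2.53 ± 0.547 FPKM in Ctrl and 1.98 ± 0.530 in cKO (SD, n = 3). It does not stand for the 12 Sertoli cell and testis genes listed, of which others, led by *Gstm6* and *Aard*, were higher. The list summed to between 110 and 170 FPKM in Ctrl and between 84.9 and 213 in cKO.

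**Figure D1:**
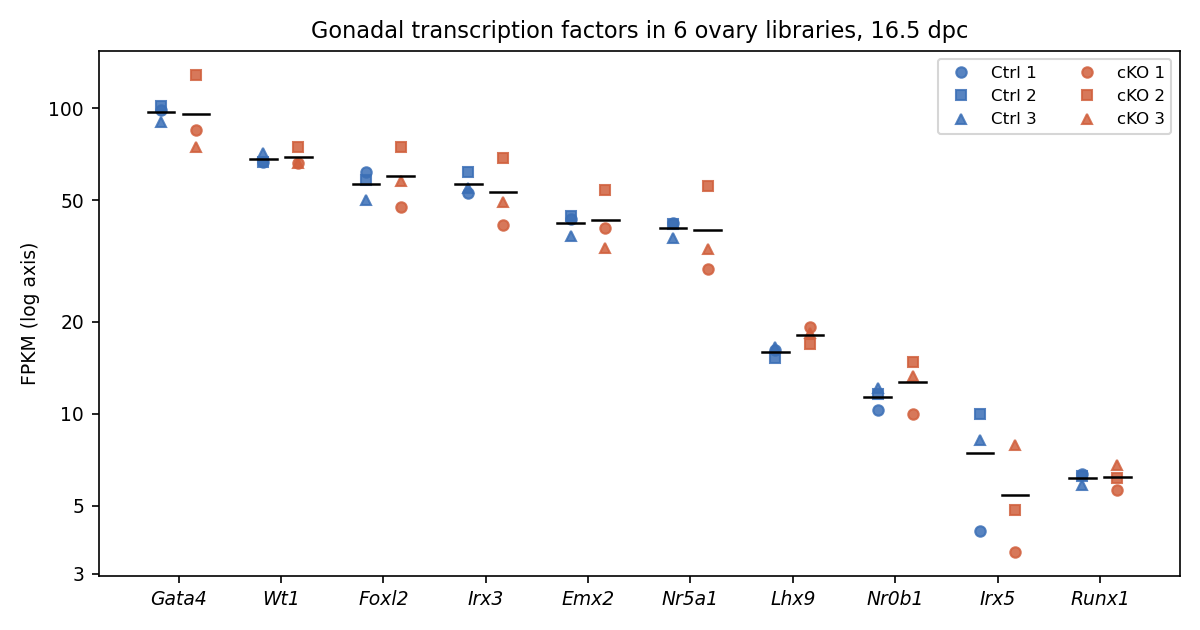
FPKM (log axis) of the 10 transcription factors in each library, ordered by mean level, with Ctrl in blue, cKO in orange, one symbol for each replicate number and a black bar at the mean of each group. The groups overlap for 9 of the genes, and for *Lhx9* the cKO libraries lie above the Ctrl libraries.

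*Foxl2* and *Runx1*, the pair that maintains pregranulosa identity, were expressed at different heights and neither differed between the groups. *Foxl2* (chromosome 9 of GRCm38, 98955288 to 98958543, plus strand) was at 61.9, 58.2 and 50.1 FPKM in Ctrl and at 47.5, 74.6 and 57.9 in cKO. The Ctrl libraries lay between the lowest and the highest cKO library, so the groups overlapped fully. The mean was 56.7 ± 6.06 in Ctrl and 60.0 ± 13.7 in cKO (SD, n = 3), a log2 difference of 0.06 with a standard error of 0.19 and an adjusted p of 0.99 in limma. Its 95% interval, from -0.38 to 0.50, corresponds to between 0.767 and 1.42 times Ctrl on the FPKM + 1 scale. *Runx1* (chromosome 16, 92601466 to 92826149, minus strand) was at 6.37, 6.26 and 5.86 FPKM in Ctrl and at 5.62, 6.17 and 6.82 in cKO. These are 6 values within 1.21 times of each other. Its log2 difference was 0.01 (standard error 0.12, interval -0.28 to 0.29, adjusted p = 0.999 in limma), and the interval runs from 0.824 to 1.22 times Ctrl on the FPKM + 1 scale.

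*Irx3* and *Irx5*, Iroquois homeobox genes of pregranulosa cells that lie 555557 bases apart on chromosome 8, behaved differently over the libraries. *Irx3* (91798525 to 91802067, minus strand) was at 52.8, 62.0 and 55.0 FPKM in Ctrl and at 41.5, 69.1 and 49.5 in cKO. Here cKO 2 was the highest library, and cKO 1 and cKO 3 were the lowest. The log2 difference was -0.11 (standard error 0.20, adjusted p = 0.986 in limma). *Irx5* (92357625 to 92376286, plus strand) was at 4.14, 9.97 and 8.20 FPKM in Ctrl and at 3.54, 4.84 and 7.93 in cKO. Low values stood in Ctrl 1, cKO 1 and cKO 2, and high values in the other 3 libraries, so that both groups were split. *Irx5* varied most among the 10 genes, with a coefficient of variation of 40.6% over the 6 libraries and a highest value 2.82 times the lowest. Between 171 and 505 reads stood behind its values, where counting error alone is 7.65% at the fewest reads. Its log2 difference of -0.38 (standard error 0.35, adjusted p = 0.978 in limma) has the widest interval of the 10, from -1.21 to 0.46, or from 0.432 to 1.37 times Ctrl on the FPKM + 1 scale. The size of the difference depended on single libraries, at -0.70 without Ctrl 1 (unadjusted p = 0.0580 in limma), -0.64 without cKO 3, and -0.15 without either Ctrl 2 or cKO 1 (unadjusted p = 0.698 and 0.693 in limma).

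*Gata4* was the most expressed of the 10 genes and *Nr5a1*, which encodes the nuclear receptor SF-1 of the gonad and the adrenal cortex, varied alongside it. *Gata4* (chromosome 14, 63198922 to 63271692, minus strand) was at 98.6, 102 and 90.3 FPKM in Ctrl and at 84.8, 129 and 74.9 in cKO. One cKO library lay above the whole Ctrl range and the other 2 lay below it. The means were 97.1 ± 6.12 and 96.3 ± 28.9 (SD, n = 3), with a log2 difference of -0.05 (standard error 0.21, interval -0.55 to 0.45). *Nr5a1* (chromosome 2, 38692656 to 38714542, minus strand) was at 42.3, 42.0 and 37.5 FPKM in Ctrl and at 29.8, 55.6 and 34.8 in cKO. As for *Gata4*, cKO 2 was above the Ctrl range and cKO 1 and cKO 3 were below it. The means of 40.6 ± 2.65 and 40.1 ± 13.7 gave a log2 difference of -0.07 (standard error 0.23, adjusted p = 0.991 in limma).

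*Nr5a1* was the gene of the 10 whose call depended on a single library. Without cKO 2, the mean of the remaining cKO libraries was 32.3 FPKM and the log2 difference was -0.32 (standard error 0.12), with an unadjusted p of 0.0373 and an adjusted p of 0.321 in limma. In that fit the unadjusted limit was passed by 14.5% of all genes tested, and by 6.01% of all genes tested with lower values in cKO, and *Nr5a1* was 1 of the 10 genes to do so. *Irx3* (-0.31, unadjusted p = 0.0593 in limma) and *Gata4* (-0.28, unadjusted p = 0.0604 in limma) did not pass without cKO 2. Without cKO 1, the log2 difference of *Nr5a1* was 0.11, and without cKO 3 it was 0.01.

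*Wt1* and *Lhx9*, which act upstream of *Nr5a1* in the early gonad, were among the steadiest genes. *Wt1*, a zinc finger gene also used in the kidney and in mesothelium (chromosome 2, 105126529 to 105173616, plus strand), was at 66.6, 66.6 and 71.5 FPKM in Ctrl and at 66.4, 75.04 and 66.4 in cKO. All 6 values lay within 1.13 times of each other, the smallest range of the 10 genes. The log2 difference was 0.02 (standard error 0.11), and its interval corresponds to between 0.843 and 1.22 times Ctrl on the FPKM + 1 scale. *Lhx9*, a LIM homeobox gene (chromosome 1, 138825186 to 138848577, minus strand), was at 16.2, 15.3 and 16.6 FPKM in Ctrl and at 19.2, 16.9 and 18.4 in cKO. Every cKO library was above every Ctrl library, with a gap between cKO 2 and Ctrl 3 of less than 1 FPKM. *Lhx9* was the only one of the 10 genes whose groups did not overlap, where the groups of 8.68% of all genes tested did not, 4.59% with cKO higher. The log2 difference of 0.17 (standard error 0.11, interval -0.09 to 0.43) did not pass the test (unadjusted p = 0.161, adjusted p = 0.978 in limma). An exact permutation test gave p = 0.1, two-sided, the smallest p that 3 libraries against 3 allow. Over all alternatives of the fit, the log2 difference of *Lhx9* stayed between 0.13 and 0.22, and its adjusted p between 0.382 and 1.

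*Emx2*, a homeobox gene of the urogenital ridge, and *Nr0b1*, the partner of *Nr5a1*, completed the group. *Emx2* (chromosome 19, 59458372 to 59465357, plus strand) was at 43.5, 44.5 and 38.2 FPKM in Ctrl and at 40.7, 54.3 and 34.9 in cKO, with the highest and the lowest library both in cKO. The log2 difference was 0.02 (standard error 0.18, interval -0.40 to 0.44). *Nr0b1* (X chromosome, 86191764 to 86195947, plus strand) was at 10.3, 11.6 and 12.2 FPKM in Ctrl and at 10.02, 14.8 and 13.3 in cKO. Of the cKO libraries, 2 were above the Ctrl range and cKO 1 was just below it. The log2 difference was 0.13 (standard error 0.16, adjusted p = 0.982 in limma), and between 279 and 448 reads stood behind each value.

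**Figure D2:**
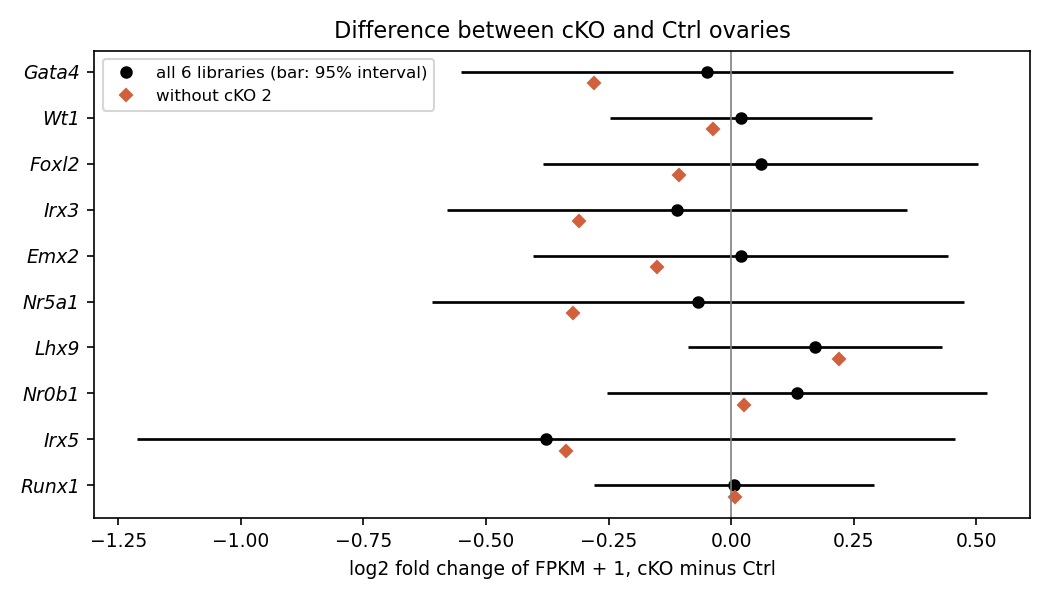
Log2 difference of FPKM + 1, cKO minus Ctrl, of the 10 genes, as black points with bars for the 95% interval from limma over all 6 libraries, and as orange diamonds for the fit without cKO 2. All 10 bars cross 0, the bar of *Irx5* is the widest, and the diamonds of *Nr5a1*, *Irx3* and *Gata4* lie near -0.3.

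The 10 genes fell into a high and a low set by FPKM, which divides by annotated gene length. That length was 9494 bases for *Lhx9* and 2762 for *Irx3*. In reads, *Lhx9* (2301 to 2817 per library) lay within the range of *Irx3* (1772 to 3203), so the sets and ranks depend on the annotated lengths. *Gata4* (mean of 96.7 FPKM over the 6 libraries), *Wt1* (68.8), *Foxl2* (58.3), *Irx3* (55.0), *Emx2* (42.7) and *Nr5a1* (40.3) formed the high set. These ranked 6, 8, 13, 16, 30 and 34 by mean FPKM among the 1025 genes tested to which the deposited table assigns a transcription factor family. *Lhx9* (17.1), *Nr0b1* (12.0), *Irx5* (6.44) and *Runx1* (6.18) formed the low set, with ranks of 151, 254, 465 and 486. *Runx1* therefore stood near the middle of all genes tested, above 51.0% of them, and *Gata4* above 98.0%. The ranges of *Nr5a1* and *Lhx9*, of *Lhx9* and *Nr0b1* and of *Nr0b1* and *Irx5* did not overlap. Neighbours within the high set did overlap in range. Within each library, *Gata4* was above *Wt1*, *Wt1* above *Foxl2* and *Irx3* above *Emx2* in 6 of 6 libraries, *Emx2* was above *Nr5a1* in 5, *Foxl2* above *Irx3* in 4 and *Irx5* above *Runx1* in 3, so the order of the last pair could not be told from these data. Of the 1025 genes with a transcription factor family, 37 passed the unadjusted limit in limma, 21 higher and 16 lower in cKO, or 3.61%.

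Variation was larger among cKO than among Ctrl libraries, though for *Irx5* the groups were nearly equal. Library cKO 2 held the highest value of 7 of the 10 genes (*Foxl2*, *Irx3*, *Nr5a1*, *Gata4*, *Wt1*, *Emx2* and *Nr0b1*), where it held the highest value of 22.3% of all genes tested. Library cKO 1 held the lowest value of 7 of the 10 genes, for *Wt1* nearly level with cKO 3 (66.4 FPKM in both). The share of all genes tested with their lowest value in cKO 1 was not computed, so nothing is read from this count. *Nr5a1* in cKO 2 was 1.49 times the mean of the other 5 libraries, *Gata4* 1.43, *Foxl2* 1.35, *Emx2* 1.34 and *Irx3* 1.32 times. *Runx1* and *Lhx9* in cKO 2 were at 0.998 and 0.987 times that mean, and *Irx5* was at 0.717 times. On a different measure, the ratio in cKO 2 to the mean over all 6 libraries, the median was 1.24 for the 10 genes and 0.987 for all genes tested. The coefficient of variation was larger in cKO than in Ctrl for 10 of the 10 genes and for 59.9% of all genes tested. Its median over the 10 genes was 7.29% in Ctrl and 22.9% in cKO, beside 15.1% and 20.2% for all genes tested. The coefficient of *Irx5* was 40.2% in Ctrl and 41.5% in cKO. For *Gata4*, with at least 4153 reads per library, counting error is at most 1.55%, against a coefficient of variation of 6.30% in Ctrl and 30.0% in cKO.

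*Gata4*, *Nr5a1*, *Foxl2*, *Irx3* and *Emx2*, grouped after their values had been seen, followed each other over the libraries. Pearson's r of log2(FPKM + 1) over the 6 libraries was between 0.69 and 0.97 for their 10 pairs, given as a description because the libraries and their scaling are shared. Without cKO 2 it was between 0.24 and 0.92, so part of the likeness rests on that library. *Lhx9* ran the other way, with its highest value in cKO 1, where *Irx3*, *Nr5a1* and *Foxl2* had their lowest. Of the 17170 other genes tested, those most like the mean centred level of the 10 genes were *Hyi* (r = 0.999 over 6 libraries), *Ndufa8* (0.985) and *2700033N17Rik* (0.984), which are extremes picked from many genes. *Hyi*, for example, was at 6.04, 9.09 and 6.56 FPKM in Ctrl and at 3.69, 12.2 and 6.31 in cKO.

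**Figure D3:**
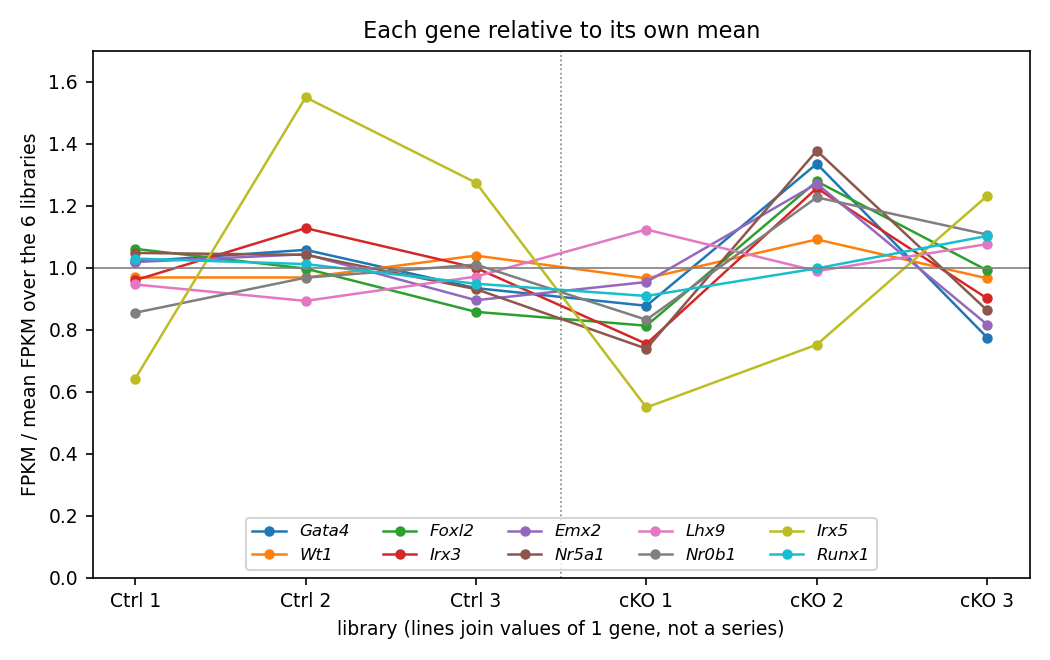
FPKM of each of the 10 genes divided by its own mean over the 6 libraries, in each library, with lines that join the values of 1 gene. In cKO 2, *Nr5a1*, *Gata4*, *Foxl2*, *Emx2*, *Irx3* and *Nr0b1* lie between 1.23 and 1.38, while *Irx5* swings from 0.549 in cKO 1 to 1.55 in Ctrl 2.

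Other cell types moved with the libraries too. The summed FPKM of 10 germ-cell genes was 101, 197 and 354 in Ctrl and 429, 171 and 520 in cKO. For the 10 transcription factors, the sum was 403, 419 and 385 in Ctrl and 349, 500 and 365 in cKO. Within cKO, the library with the lowest germ-cell sum had the highest sum of the transcription factors, while in Ctrl the germ-cell sum ran from 101 to 354 over libraries whose transcription factor sums were close to each other. The part of germ-cell content in these results was not tested. All 10 germ-cell genes were tested, with a median log2 difference of 0.56. *Dazl*, an RNA-binding protein of germ cells, rose from 47.4 ± 29.4 to 148 ± 83.1 FPKM (SD, n = 3, unadjusted p = 0.0345 in limma) and *Dppa3* rose too, whereas *Kit*, the receptor of the pregranulosa ligand *Kitl*, fell from 7.47 ± 0.0803 to 5.35 ± 0.989 (unadjusted p = 0.0215 in limma). These 3 genes passed only the unadjusted limit, with adjusted p of 0.978. Of 8 red blood cell genes, 7 had a log2 difference below 0 and 1 above 0, with a median of -0.85. Only the 1 above 0, the embryonic globin gene *Hbb-y*, passed the unadjusted limit (2.10, unadjusted p = 0.00589 in limma). The list summed to between 4897 and 23315 FPKM in Ctrl and between 1702 and 10469 in cKO. *Gata1*, the GATA factor of red blood cells, was at 24.2 ± 16.5 FPKM in Ctrl and 10.2 ± 2.20 in cKO, a log2 difference of -0.88 that did not pass.

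Neighbouring tissues also use some of the 10 factors. *Emx2* and *Wt1* are also used in the mesonephros and the kidney, and the summed FPKM of 10 mesonephric genes was between 13.2 and 14.9 in Ctrl and between 10.2 and 15.3 in cKO. None of the 10 was at 0 in all libraries, but the defining genes *Pax2*, *Lhx1*, *Wnt9b* and *Emx1* were too low to be tested. *Gata3*, a mesonephric duct gene and a paralogue of *Gata4*, was the only one of the list to pass the unadjusted limit, lower in cKO at 0.647 ± 0.163 against 1.47 ± 0.273 FPKM (log2 difference -0.58, unadjusted p = 0.0096, adjusted p = 0.978 in limma). *Nr5a1* and *Nr0b1* are also genes of the adrenal cortex. Of the 9 genes of the adrenal list, *Cyp11b1*, *Cyp11b2* and *Cyp21a1*, which define that tissue, were too low to be tested. *Cyp11b2* was at 0 in 5 libraries and at 1.28 FPKM in cKO 2, and *Cyp21a1* was at 0.529 in cKO 2 and at most 0.0267 elsewhere, so both were highest in the library where *Nr5a1* and *Nr0b1* were highest. The part of adrenal RNA in the values of that library was not tested. The sum of the list, led by *Hsd3b1*, lay between 36.4 and 81.0 FPKM in Ctrl and between 32.4 and 76.5 in cKO. This sum was highest in Ctrl 1, where *Nr5a1* was at 42.3 and *Nr0b1* at 10.3 FPKM, and next highest in cKO 2. *Mrap*, which carries the ACTH receptor to the cell surface, fell from 8.58 ± 4.64 to 2.80 ± 0.266 FPKM (unadjusted p = 0.0218, adjusted p = 0.978 in limma). Stroma was led by *Col3a1* and *Col1a1*, and of the 10 stromal genes 0 passed, with a summed FPKM of 708 to 893 in Ctrl and 692 to 773 in cKO. Of 8 endothelial and 8 macrophage genes, 0 passed, with sums of 74.6 to 91.7 and 38.4 to 45.4 FPKM in Ctrl and of 72.5 to 91.8 and 29.2 to 47.4 in cKO.

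**Figure D4:**
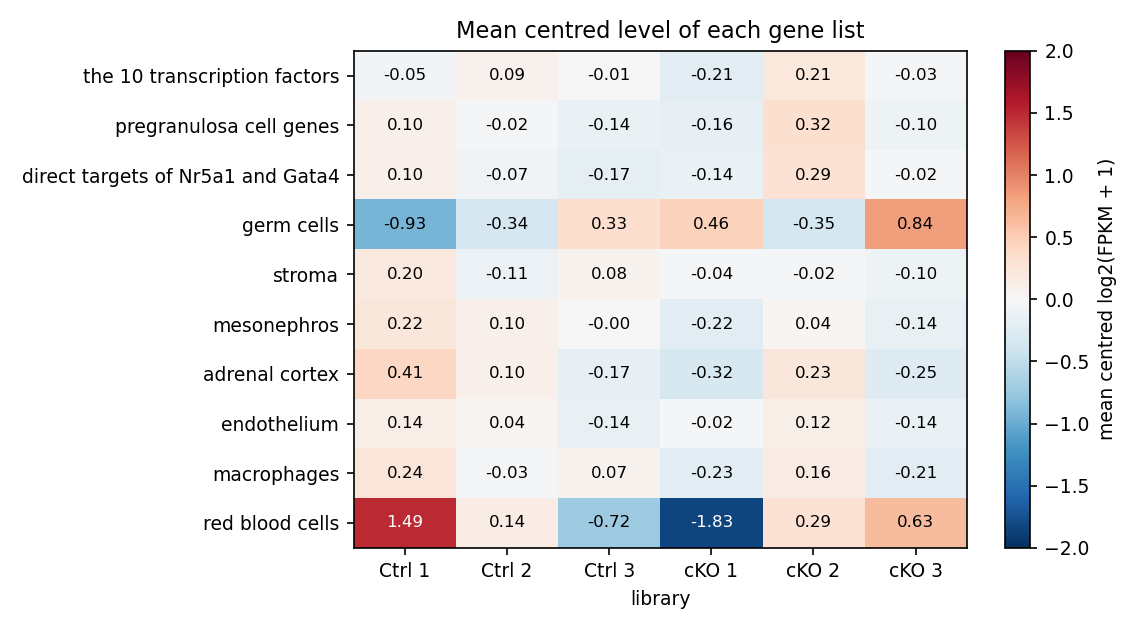
Mean of log2(FPKM + 1) over the tested genes of each list, centred over the 6 libraries, with 1 column for each library and red for levels above the mean. The transcription factors, the pregranulosa genes and the targets of *Nr5a1* and *Gata4* are highest in cKO 2, at 0.21, 0.32 and 0.29, where the germ-cell list is at -0.35.

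Genes that work with the 10 factors did not pass either. Of 21 other regulators of the gonad, 19 were tested and 0 passed the unadjusted limit in limma, with 12 above 0 and 7 below 0 and a median log2 difference of 0.05. *Ctnnb1*, which carries the Wnt signal that favours the ovary, was at 142 ± 1.53 FPKM in Ctrl and 148 ± 12.1 in cKO, and *Tcf21* was at 47.5 ± 6.52 and 50.2 ± 5.98. The next 3 partners, chosen after their values had been seen, were *Cbfb*, the subunit that Runt factors need to bind DNA well, at 30.1 and 32.4 FPKM, *Zfpm2*, the cofactor of *Gata4*, at 7.29 and 7.75, and *Nr2f2*, a nuclear receptor of stromal cells, at 13.1 and 15.1 with no overlap between the groups. *Zfpm1*, also named after its values had been seen, had the largest log2 difference of the regulators tested, -0.74 (unadjusted p = 0.117 in limma). Its level was 35.7 ± 20.8 FPKM in Ctrl and 18.7 ± 2.91 in cKO, with overlap between the groups. *Zfpm1* ranked the libraries in the same order as *Gata1*, the GATA factor of red blood cells. Both were highest in Ctrl 1 (57.6 and 39.2 FPKM) and lowest in Ctrl 3 (16.3 and 6.57). The part of red blood cell content in the values of *Zfpm1* was not tested. Of the 22 paralogues of the 10 factors, 10 reached the minimum level and 1, *Gata3*, passed. *Gata6*, the paralogue closest to *Gata4* in the gonad, was the highest at 31.1 ± 1.73 FPKM in Ctrl and 32.2 ± 4.35 in cKO. *Irx1*, *Irx4*, *Irx6*, *Runx2*, *Runx3* and *Emx1* were too low to be tested, so *Irx3*, *Runx1* and *Emx2* were the well expressed members of their families here, together with *Irx5* and, at about 1 FPKM, *Irx2*.

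Genes of the pregranulosa cell spanned a wide range of levels, from *Hsd17b1* below 1 FPKM in both groups to *Amhr2*. All 12 genes of a pregranulosa list were tested and 0 passed the unadjusted limit in limma, with a median log2 difference of 0.02. *Amhr2* was at 144 ± 19.7 FPKM in Ctrl and 139 ± 39.8 in cKO, and *Kitl*, the ligand through which these cells signal to oocytes, at 124 ± 21.2 and 143 ± 17.6 (log2 difference 0.22, standard error 0.17). Outside the fixed rule for naming genes, *Fst*, an activin inhibitor and target of *Foxl2*, was at 48.2 ± 10.2 and 58.5 ± 10.3, and *Rspo1* and *Wnt4*, ligands of the Wnt pathway, were at 55.1 and 46.6 FPKM in Ctrl and at 54.4 and 50.4 in cKO. Of 18 target genes of *Nr5a1* and *Gata4*, a list that includes *Nr0b1* and shares *Amhr2* and *Inhbb* with the pregranulosa list, 14 were tested and 0 passed, with a median log2 difference of 0.09. *Inha*, the inhibin alpha subunit, was at 38.9 ± 2.13 and 43.1 ± 13.9 FPKM. *Cyp11a1*, *Hsd3b6*, *Cyp19a1* and *Fshr* were too low to be tested. Of 12 Sertoli cell and testis genes, 11 were tested and 0 passed, and the most expressed were *Gstm6*, at 86.0 ± 37.0 and 82.7 ± 66.5 FPKM, and *Aard*, at 34.3 ± 3.20 and 34.6 ± 6.12. Among 8 genes of the ovarian surface epithelium, which also uses *Wt1*, *Gata4* and *Lhx9*, 0 passed, and *Aldh1a1* and *Aldh1a2* led at 74.1 ± 23.9 and 64.3 ± 8.88 FPKM in Ctrl and 74.6 ± 16.9 and 74.7 ± 7.03 in cKO.

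Several of the 10 genes have a partner RNA on the opposite strand, and since the sources used here do not give the strand setting of the counting, reads in shared bases cannot be told apart. *Foxl2os* overlaps *Foxl2* by 12 bases and was at 15.1, 18.1 and 14.3 FPKM in Ctrl and at 18.3, 19.3 and 16.6 in cKO. *Emx2os* overlaps *Emx2* by 264 exonic bases, which are 8.79% of the exons of *Emx2*, and was at 11.7, 10.4 and 12.0 FPKM in Ctrl and at 10.9, 15.0 and 15.9 in cKO. *Irx3os* shares 124 exonic bases with *Irx3*, or 4.49% of its exons, and was at 5.94, 5.75 and 5.98 FPKM in Ctrl and at 4.10, 6.82 and 4.71 in cKO, highest in cKO 2 as *Irx3* was. *Wt1os* ends 18 bases before *Wt1* and was at 16.9 ± 1.60 FPKM in Ctrl and 18.9 ± 1.76 in cKO. *Nr5a1os* overlaps *Nr5a1* outside its exons and had 4, 5 and 9 reads in Ctrl and 5, 24 and 3 in cKO, with the most in cKO 2. *Gm26626*, inside *Runx1*, had at most 3 reads per library and was not tested. None of the 5 tested partners passed the unadjusted limit in limma, with log2 differences between -0.18 for *Irx3os* and 0.26 for *Emx2os*.

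A promoter sequence is shown for *Nr0b1*, because the gene is a known target of the nuclear receptor that *Nr5a1* encodes. Both were highest in cKO 2 and lowest in cKO 1, but so were *Foxl2*, *Irx3* and *Wt1*. Pearson's r of *Nr0b1* over the 6 libraries was 0.61 with *Nr5a1* and 0.70 with *Wt1*. RefSeq windows on GRCm38.p6 around the start sites were found for 6 of the 10 genes, 7 windows in all. Of these, 5 lie wholly inside the gene as the deposited table gives it (those of *Lhx9*, *Irx3*, *Foxl2* and *Emx2* and 1 of *Runx1*), and only those of *Nr0b1* and the other of *Runx1* reach outside. The stretch below is the part of the *Nr0b1* window that lies before the gene in the deposited table, chrX:86191525-86191763, plus strand, read 5′ to 3′. Capitals mark AGGTCA, the core letters shared by many nuclear receptors, which starts 115 bases before the gene.
*Nr0b1*: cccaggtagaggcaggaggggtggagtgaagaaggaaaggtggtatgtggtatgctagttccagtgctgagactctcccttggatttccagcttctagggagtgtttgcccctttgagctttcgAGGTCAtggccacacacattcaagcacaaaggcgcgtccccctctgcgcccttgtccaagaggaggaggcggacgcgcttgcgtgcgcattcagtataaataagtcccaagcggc
On either strand, AGGTCA stands in 16.3% of the 32851 RefSeq promoter windows of this length, and in 1 of the 7 windows here, that of *Nr0b1*. It was searched after the longer form AAGGTCA, which contains it and stands in 4.72% of windows, had been found in 0 of the 7. The Runt letters TGTGGT stand in windows of *Nr0b1* and *Runx1* and in 16.8% of all windows, the homeobox letters TAATTA in that of *Emx2* (5.29% of all), and the E-box CACGTG in 1 of *Runx1* (7.15%). The GATA letters AGATAA (11.2% of all), the forkhead letters GTAAACA (3.65%) and the Iroquois letters ACATGT (5.28%) were not found in these 7 windows. A match describes the sequence and does not show that a factor binds there.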

How the data were processed

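Messenger RNA, purified by its poly-A tail from total RNA of whole ovaries, was sequenced in 6 libraries, 3 per group. The authors aligned paired-end reads to mm10 (GRCm38) with HISAT2 2.0.5, per the labels, assigned them to genes by featureCounts, and deposited FPKM. For the annotation release and strand setting, the sources used here say nothing. FPKM times gene length gave whole reads, to within 0.05 of a read, in every library, with 14212164 to 16784241 reads on genes. Groups and replicate numbers came from the sample titles.

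The members and gene lists were chosen with earlier results of these data known. Genes named beside the 10 members are, for each list, the 2 most expressed and up to 4 that passed the test, *Srsf1*, opposite-strand partners, the 3 genes most like the members, and genes marked as chosen later. Other list genes given as too low to test, or as the ends of a range, were picked after their values had been seen. The groups were compared on log2(FPKM + 1) by limma 3.58.1 (R 4.3.3), over genes that averaged 0.5 FPKM or more, with an intensity trend, two-sided, and Benjamini-Hochberg adjustment over all genes tested. Python 3.11.15 with scipy 1.17.1, pandas 2.3.3 and matplotlib 3.10.9 was used for the exact permutation tests, tables and figures. The fit was tested on simulated libraries. The alternatives were pseudocounts of 0.1 and 0.5, no minimum or a minimum of 1 FPKM, quantile normalization, scaling by median ratios, limma voom run on the reads, no trend, a replicate block, protein-coding genes alone and each library left out. Gene positions in the deposited table equal those of GENCODE M21 for all 10 members.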

Additional observations from a re-analysis of the deposited data

How the results depend on the processing

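The number of the 10 genes past the unadjusted limit in limma was 0 under every alternative that kept all 6 libraries, and 0 to 1 with a library left out, the 1 being *Nr5a1* without cKO 2. Over all genes, 1331 passed with no minimum FPKM, against 761 with it, and between 365 (without Ctrl 2) and 2500 (without cKO 2) with a library left out, with 1176 without Ctrl 3, 441 without cKO 1 and 431 without cKO 3. *Srsf1* passed the unadjusted limit under all 16 alternatives. Of the 160 values of the 10 genes under the alternatives, 14 had the other sign than in the fit of all libraries, none of them past the limit. Under voom these were *Runx1* at -0.017 and *Wt1* at -0.00046. With a library left out, the log2 difference lay between -0.11 and 0.21 for *Foxl2*, -0.055 and 0.065 for *Runx1*, -0.31 and 0.051 for *Irx3*, -0.32 and 0.11 for *Nr5a1*, -0.28 and 0.11 for *Gata4*, -0.037 and 0.054 for *Wt1*, -0.15 and 0.16 for *Emx2*, 0.13 and 0.22 for *Lhx9*, 0.026 and 0.28 for *Nr0b1* and -0.70 and -0.15 for *Irx5*. The last 3 kept their sign under all alternatives, but *Nr0b1* was lowest without cKO 2 and highest without cKO 1. With the replicate number as a block, 681 genes and 0 of the 10 passed. Standard errors fell for some members and rose for others, from 0.35 to 0.22 for *Irx5* and from 0.11 to 0.14 for *Wt1*. Over all genes tested, the deviations of same-numbered libraries had correlations of -0.39, -0.03 and 0.12 for replicates 1, 2 and 3. With 3 libraries per group, these values cannot show whether the numbers pair the libraries. The fit without the block was kept. Counting error was largest for *Irx5* (7.65% at its fewest reads) and *Nr0b1* (5.99%), below their coefficients of variation in both groups.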
